A study of Mus musculus with 16 samples.

Results

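Broad acetylated regions are stretches of mouse liver RNA where at least 1 immunoprecipitation peak for N4-acetylcytidine (ac4C) was 1000 bp or wider. They were found by merging the peaks of 8 deposited peak lists wherever 2 peaks on a chromosome shared at least 1 bp, and were chosen by peak width and presence: merged regions were kept with such a wide peak and with a peak in at least 1 db/db list and at least 1 lean list. This left 504 of 25437 merged regions, in 473 genes. Of the 9551 regions called in both groups, the other 9047 held no peak of 1000 bp and served as the comparison. Another 485 regions held a peak of 1000 bp but were called in 1 group only and were left out by the rule.

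The study profiled livers of male db/db mice and of male lean C57BL/6 mice by acetylated RNA immunoprecipitation and sequencing, in which an ac4C antibody pulls down RNA fragments, with an input library beside each immunoprecipitate. The db/db strain carries a defective leptin receptor in the whole body and becomes obese and diabetic, so obesity, diabetes and strain cannot be told apart in its comparison with lean livers. Ages are not given in the labels. Of the deposited lists, 4 carry db/db names (db1, db2, db4 and db5) and 4 carry control names (C5 to C8). Not all list names occur among the sample titles, so each list was assigned to its group and to no single mouse, and the spread between lists is the only replicate error.

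N4-acetylcytidine is a cytidine with an acetyl group on its base. NAT10 is the enzyme that writes it, on ribosomal and transfer RNA and, as described in human cells, on messenger RNA, where it has been linked to RNA stability and translation. The RNA was fragmented before the antibody was added, so a peak far wider than a fragment does not mark 1 modified base. How far the width of a peak measures the extent of acetylation was not tested.

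At 39 of 367 broad regions with a RefSeq promoter for their gene (10.6%), an edge of the region lay exactly on the transcription start site, against 948 of 7200 other regions (13.2%). The 6 sequences printed next belong to such regions and are shown because the regions cover a regulator of liver metabolism or an immediate early or stress gene from its first base. Each runs 5′ to 3′ on the gene's strand, with 60 bases before the start site in lower case and the first 30 transcribed bases in capitals, from RefSeq on GRCm38.p6.
Cebpb, chr2:167688855-167688944, plus strand: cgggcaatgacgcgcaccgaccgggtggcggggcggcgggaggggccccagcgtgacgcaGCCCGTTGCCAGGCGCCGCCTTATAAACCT
Foxo1, chr3:52268277-52268366, plus strand: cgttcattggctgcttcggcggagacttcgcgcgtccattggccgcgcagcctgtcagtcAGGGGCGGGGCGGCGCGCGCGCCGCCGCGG
Jun, chr4:95052193-95052282, minus strand: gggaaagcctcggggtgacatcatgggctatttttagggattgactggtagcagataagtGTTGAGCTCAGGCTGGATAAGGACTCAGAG
Junb, chr8:84978719-84978808, minus strand: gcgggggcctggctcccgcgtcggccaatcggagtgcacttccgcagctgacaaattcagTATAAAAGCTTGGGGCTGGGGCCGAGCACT
Hspa1a, chr17:34972127-34972216, minus strand: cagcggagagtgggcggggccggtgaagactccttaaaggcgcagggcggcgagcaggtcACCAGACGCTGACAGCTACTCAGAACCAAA
Hspa1b, chr17:34959209-34959298, minus strand: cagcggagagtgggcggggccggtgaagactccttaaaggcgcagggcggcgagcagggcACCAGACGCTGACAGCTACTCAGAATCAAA

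Cytidines made up 12 of the 30 capital bases in Cebpb, 11 in Foxo1, 10 in Hspa1a, 9 in Hspa1b, 6 in Junb and 5 in Jun. Over the first 50 transcribed bases of the 39 genes, the median cytidine content was 32%, against 30% in 941 genes of other regions that begin at the start site and 26% in all 27025 RefSeq promoters of the table. The letters CNNCNNCNN, a spaced repeat of cytidines described for ac4C sites in human cells, occurred on the transcribed strand in 74.4% of the 39 genes, 65.7% of the 941 and 50.2% of all promoters. On the other strand the same letters occurred in 92.3%, 83.7% and 58.6%, and the median GC content of the windows was 74%, 70% and 56% in the same order. A match is a description of the letters and shows no modified site.

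The widest peak of a broad region had a median of 1431 bp (interquartile range 1157.5 to 1888, range 1001 to 8020), against 179 bp in the other regions called in both groups. Width chose the regions, so these values are a description. Peaks of 2000 bp or more occurred in 107 regions, of 3000 bp or more in 28 and of 5000 bp or more in 7. Just inside the threshold were Eif4e3 at 1001 bp, Snrnp35 at 1002 bp and Siah2 at 1005 bp, and just outside it Arvcf, Mllt4 and Sparcl1 at 996 bp each.

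**Figure D1:**
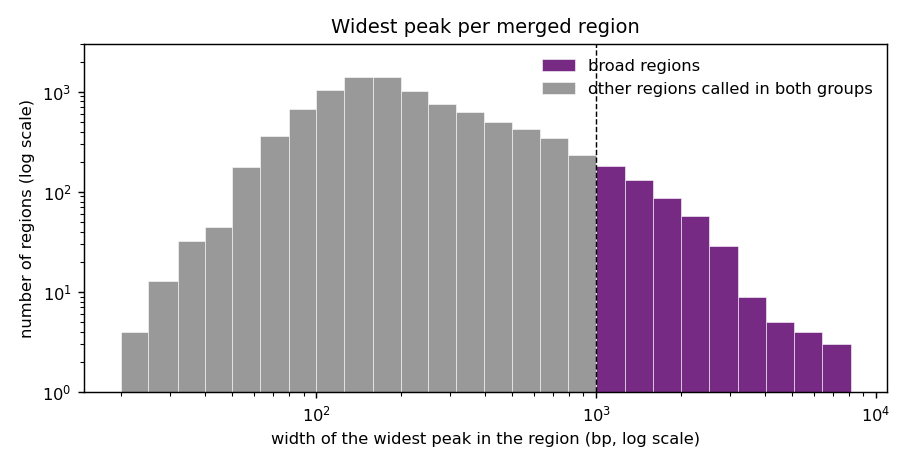
Number of merged regions (log scale) by the width of their widest peak in bp (log scale), for the 504 broad regions and the 9047 other regions called in both groups, with a dashed line at 1000 bp. The counts decline across the threshold without a gap between the sets.

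The widest peak of all lay in Spen, a large transcriptional corepressor that acts in Notch signalling and X inactivation, at chromosome 4 from 141471370 to 141479389 (mm10, minus strand, inside the gene). Its widest peak measured 2929, 8020, 5866 and 5852 bp in db1, db2, db4 and db5, against 4530 bp in C5 and 4595 bp in C7, with no peak in C6 or C8. The db/db widths lay on both sides of the lean ones. Plec, which encodes the cytoskeletal linker plectin, held a peak of 7412 bp with the same width in db1, db2, db4 and C6 and none in the other 4 lists. Ankrd11, a chromatin regulator, had 4089, 6518 and 6518 bp in db2, db4 and db5, against 6518, 5258, 6518 and 6518 bp in C5 to C8.

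Golgb1, which encodes the Golgi tether giantin, had 5129 bp in all 8 lists. Its fold enrichment, the authors' value for each peak, was 6.01, 5.66, 4.4 and 5.01 in the db/db lists, against 4.76, 5.78, 5.07 and 5.82 in the lean lists. The group values overlapped. Tacc2 showed the opposite kind of record, with 5121 bp in db1 against 636 bp in C5 and 855 bp in C8, and no peak elsewhere.

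**Figure D2:**
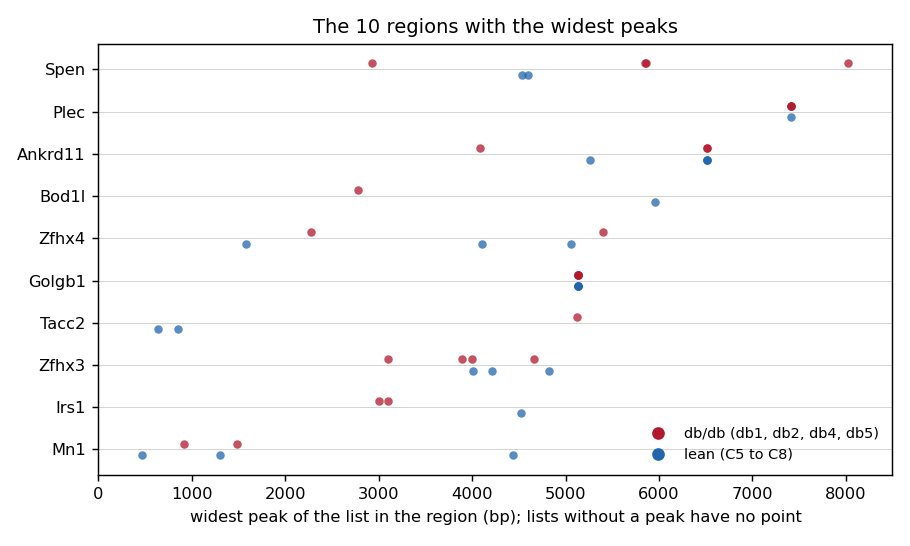
Width in bp of the widest peak of each list in the 10 regions with the widest peaks, with db/db lists in red above lean lists in blue and no point where a list had no peak. Golgb1 has 5129 bp in all 8 lists, whereas Spen spreads from 2929 to 8020 bp.

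A peak of 1000 bp was seen in 1 list only for 117 regions (23.2%) and in all 8 lists for 43. It was seen in both groups for 333 regions, in db/db lists only for 67 and in lean lists only for 104. Width and presence chose the regions, so this split is a description and no result about the groups. Over all peaks, those of 1000 bp or more averaged 302 (SD 51.6) per db/db list and 306 (SD 34.6) per lean list. Of the 80 broad regions called in all 8 lists, 23 had identical bounds in every list (28.8%), against 1159 of 1499 other regions called in all 8 (77.3%). Whether such shared bounds follow the enrichment itself or other limits, such as gene bounds, was not tested. The ratio of widest to narrowest list in the 80 regions had a median of 1.32 and a maximum of 4.90. In 52 broad regions (10.3%) at least 1 list had several separate peaks within the region, against 13 other regions (0.144%). A longer region has more room for separate peaks, so this contrast is a description.

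Broad regions were called about as often as other regions. All 8 lists held 80 of the 504 (15.9%), where 16.5% of the regions called in both groups were in all 8. A single list in each group held 69 (13.7%), where the background was 16.7%. The db/db lists called 288, 331, 337 and 269 broad regions (mean 306 ± 33.1, SD, n = 4), and the lean lists 304, 318, 323 and 288 (mean 308 ± 15.7, SD, n = 4). The difference of 2 regions was smaller than the spread between lists. Broad regions gave 3.36% to 4.09% of a list's peaks and 15.8% to 19.3% of the bases it called.

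Presence is part of the rule, so lopsided presence was read against the background only. A peak in all 4 db/db lists and 1 lean list was found for 13 broad regions (2.58%), where the background was 2.39%. The widest of these lay in Ptrf, now named Cavin1, which coats caveolae, with 754, 886, 817 and 952 bp in the db/db lists against 1915 bp in C7. Sox9, a transcription factor of bile duct cells, had 1529, 1668, 916 and 1187 bp against 1724 bp in C7. Zfpm1, a cofactor of GATA factors, had 1820 bp in each db/db list against 1812 bp in C7. The difference in the percent of lists with a peak, db/db minus lean, was 75 points for each of the 3 genes. Among peaks with a fold of 4 or more it was 25 for Ptrf, 25 for Sox9 and 0 for Zfpm1, and among peaks with a score of 50 or more it was 0, 25 and 25 in the same order. Rsf1, Gm10184 and Prob1, also of this pattern, began at 75 points too. Among peaks with a fold of 4 or more they stood at 75, 100 and 100, and at a score of 50 each stood at 50.

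The reverse, 1 db/db list and all 4 lean lists, was found for 10 broad regions (1.98%), where the background was 2.02%. Kat6b, a histone acetyltransferase, had 1852 bp in db4 against 637, 1607, 2892 and 1637 bp in C5 to C8. Apoa4, an apolipoprotein of lipid transport, had the same 1181 bp in db1 as in all 4 lean lists. Its fold was 16.42 in db1, against 3.65, 3.26, 4.65 and 3.56 in the lean lists. The Apoa4 difference of -75 points was 0 among peaks with a fold of 4 or more and stayed at -75 at a score of 50. That of Kat6b stayed at -75 under both thresholds. Both shares were near the background and are no result about the broad regions.

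Within each list, peaks were ranked by fold and given a percentile, since a fold is comparable only inside its own list. The median percentile of peaks in broad regions was 68.1 over the 8 lists, against 58.7 for peaks of the other regions. The difference of 9.41 points had the same sign in 8 of 8 lists (exact two-sided sign-flip test over lists, p = 0.00781, the smallest 8 lists can give). Median folds were 4.68 to 5.15 in broad regions and 4.34 to 4.52 in the others. Among regions called in all 8 lists, the percentiles were 86.6 and 82.8. The difference was 4.69 points among peaks with a score of 50 or more (exact test, p = 0.0234) and 2.53 points among those with a fold of 4 or more (exact test, p = 0.0312). A broad region was called in a median of 5 lists, so the lists are not independent tests of the regions, and whether a wider peak reaches a higher fold by its length was not tested.

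The nearest edge of a peak lay within 500 bp of the annotated 3′ end of its gene for 18.6% of peaks in broad regions, against 2.30% of the others, in 8 of 8 lists (exact two-sided sign-flip test, p = 0.00781). For the 5′ start the shares were 16.0% and 23.1%, lower in broad regions in 8 of 8 lists (exact test, p = 0.00781). A wider peak comes within 500 bp of a fixed point from more positions, so nearest edges favour broad regions at both gene ends by construction. How much of the 3′ difference comes from width alone was not tested. A peak of 1000 bp that ends at the gene end has its midpoint at least 500 bp away, and with midpoints the 3′ shares were 1.34% and 1.99% and the 5′ shares 1.97% and 22.0%. The 3′ result therefore held for edges and turned round for midpoints. Within 100 bp in place of 500 bp, the 3′ difference was 10.1 points, against 16.3. The 5′ difference of -7.07 points was -12.5 among peaks with a fold of 4 or more.

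**Figure D3:**
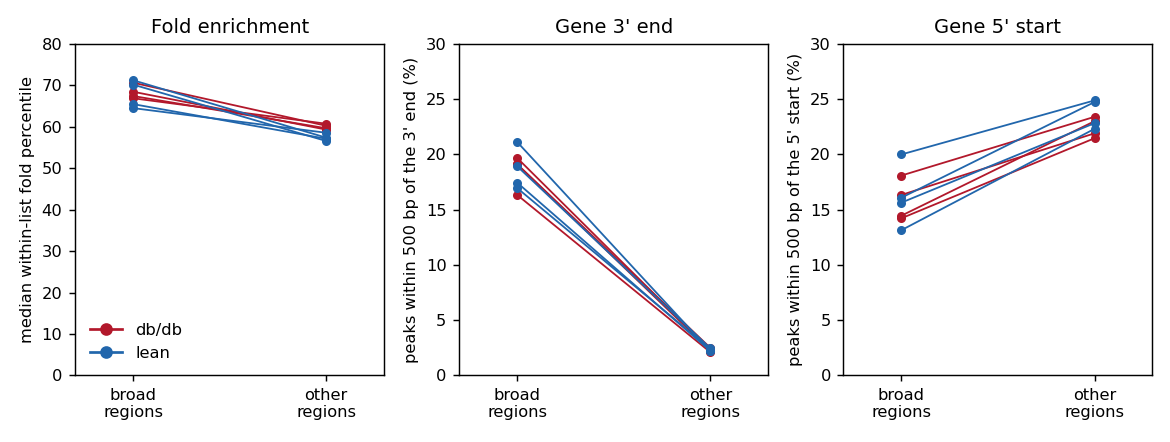
Each line joins 1 list's value for peaks in broad regions (left) with that for peaks in other regions (right), db/db lists in red and lean lists in blue, for the median within-list fold percentile and the percent of peaks within 500 bp of the gene's 3′ end and 5′ start. All 8 lines fall to the right in the first 2 panels and climb in the last.

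Strand was known for 365 broad regions. Of these, 228 lay inside the gene (62.5%), 80 at the 3′ end (21.9%), 46 at the 5′ start (12.6%) and 11 at both (3.01%). The other regions with a strand were inside in 76.7%, at the 3′ end in 2.48%, at the 5′ start in 20.7% and at both in 0.181%. Places were also taken by the nearest edge, so these shares depend on the width of the region as well. Exons were not annotated here, so a width in the genome may include intron sequence.

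A broad region covered 80% or more of its gene in 22 of 484 cases with gene bounds (4.55%), against 35 of 8846 other regions (0.396%). Coverage grows with region length, so this contrast is a description too. Of the 22, 13 were in protein-coding genes and 8 in pseudogenes. Cebpb, a transcription factor of the liver acute phase and gluconeogenesis, was covered from end to end at 1518 bp in all 8 lists. Its fold was 5.46, 6.61, 5.77 and 5.03 in the db/db lists, against 5.04, 7.65, 4.67 and 5.78 in the lean lists, and the groups overlapped.

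Jun, an immediate early transcription factor, had 3186, 2458, 2579 and 2531 bp in the db/db lists, against 2316 bp in C6 and 1157 bp in C8, with no peak in C5 or C7. Junb, its relative, had 1751 bp in db1 and 1779 bp in db5, against 1840, 1825 and 1840 bp in C5, C6 and C7. These regions were singled out after their values were seen.

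The inducible heat shock proteins Hspa1a and Hspa1b are neighbouring copies whose printed sequences differ at 2 of 90 positions, so reads may have been split between them and their values are uncertain. Hspa1a had 1084, 1154 and 2158 bp in db2, db4 and db5, against 2251, 2519 and 1821 bp in C5, C6 and C8. Hspa1b had 2624, 2316 and 2636 bp in the same db/db lists, against 2810 bp in C8 alone. Of all broad regions, 37 were in predicted genes or pseudogenes, where reads of a parent gene may also have been placed.

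Gene lists were read against the background of 473 of 4695 genes with a region in both groups that hold a broad region (10.1%). The lists were chosen with earlier results of these data known, and width chose the regions, so the shares are a description and no test. Genes known for a very long single exon held one in 18 of 29 cases (62.1%) and chromatin modifiers and remodellers in 17 of 37 (45.9%). Ankrd11, Kmt2a, Kmt2d, Tet2 and Tet3 are counted in both of these lists, so their shares are not independent. Insulin signalling held one in 4 of 14 genes, nuclear receptors and coregulators in 1 of 14 (Ppargc1b) and junction and cytoskeleton giants in 1 of 13 (Plec). Irs1, Irs2 and Plec are also in the long-exon list. Lipogenesis and lipid handling held none in 10 genes, mRNA decay and translation control none in 14, and the ac4C writer with its nucleolar partners none in 9.

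**Figure D4:**
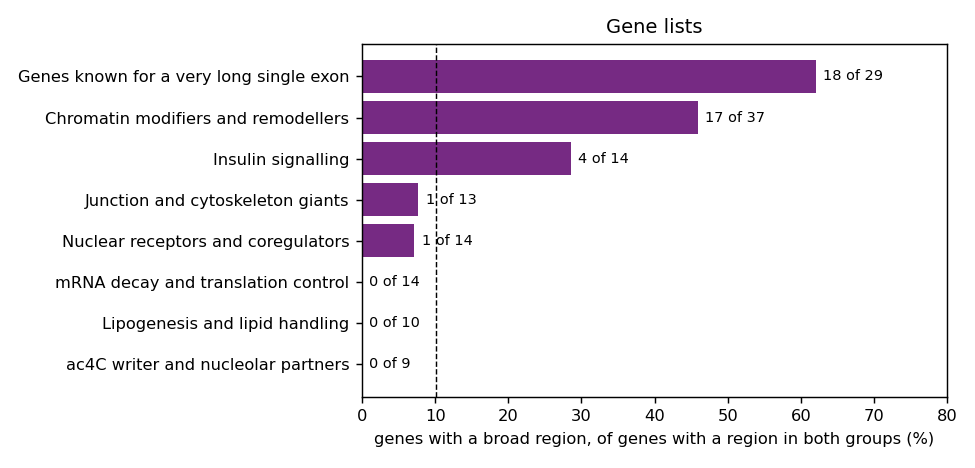
Percent of each list's genes with a region in both groups that hold a broad region, with the counts beside the bars and a dashed line at the 10.1% of all such genes. The long-exon and chromatin lists stand at 62.1% and 45.9%, and 3 lists stand at 0. The long-exon and chromatin lists share genes, and all lists were chosen with earlier results of these data known.

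Among chromatin genes, Kmt2d, a histone methyltransferase of enhancers, held 3 separate broad regions. The one at chromosome 15 from 98843595 to 98846546 measured 2952, 2952, 2952 and 2866 bp in the db/db lists, against 2952 bp in each lean list. Kdm6b, a histone demethylase, had 2168 bp in all 8 lists, with folds of 20.35, 19.44, 15.69 and 17.65 in the db/db lists against 16.22, 13.35, 26.76 and 15.02 in the lean lists. Ncoa6, a coactivator of nuclear receptors, had 2976 bp in db1 and db4, against 2976 bp in all 4 lean lists. Akap9, a scaffold of the centrosome and Golgi, and Zfhx2, a homeobox factor, also held 3 regions each, and 25 genes held 2.

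In insulin signalling, Irs2, the insulin receptor substrate prominent in liver, had 2099, 3989, 3989 and 3989 bp in the db/db lists, against 3989, 3989, 3989 and 2078 bp in the lean lists. Its folds were 4.76, 4.46, 3.65 and 6.97 in the db/db lists, against 3.84, 4.92, 5.12 and 3.14 in the lean lists. Irs1, the other main substrate, had 2999 bp in db4 and 3098 bp in db5, against 4528 bp in C6. Foxo1, which drives gluconeogenic genes when insulin is low, had 1086 bp in db2 and db4, against 1030 bp in C5 and C7. No order by group is seen in Irs2, and Irs1 and Foxo1 rest on 1 or 2 lists in a group.

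Of 45 cell type markers, 9 had a region in both groups, and 1 of these, Sox9 of bile duct cells, held a broad region, where the background was 10.1% of genes. This is no result about cell types. None of the 12 hepatocyte markers had a region in both groups, and 3 of them had a peak in any list. A peak needs acetylation as well as RNA, so its absence does not show that a cell type or its RNA is missing. In bulk liver, fewer cells of a type and less RNA per cell also cannot be told apart.

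By mean fold percentile over the lists, the highest of the broad regions called in all 8 lists was Tmem38b, an intracellular cation channel, with folds of 571.88, 430.21, 554.95 and 457.71 in the db/db lists, against 449.49, 442.83, 431.98 and 421.98 in the lean lists. Prg4, which encodes lubricin, had 2286 bp in all lists, with folds of 111.46, 36.07, 29.6 and 20.83 in the db/db lists, against 51.99, 32.72, 36.43 and 34.67 in the lean lists. Hmgn5, a nucleosome-binding protein, had folds of 19.86, 30.5, 26.87 and 37.47 in the db/db lists, against 33.03, 18.21, 29.62 and 25.84 in the lean lists. At the low end, Polr2a, the large subunit of RNA polymerase II, had 1570 bp in all lists, with folds of 3.26, 3.37, 3.09 and 3.18 in the db/db lists, against 4.37, 4.03, 5.57 and 3.22 in the lean lists.

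The fold percentile was then compared between groups in the 80 broad regions called in all 8 lists. Every db/db list stood above every lean list in 3 of them (3.75%), where the background was 6.27% of 1579 regions, and below in another 3 (3.75%), where the background was 6.59%. These 6 reached an exact two-sided permutation p of 0.0286, the smallest that 4 against 4 lists can give, and none passed after Benjamini-Hochberg adjustment over the 1579 regions (exact test, smallest adjusted p = 0.222). Over all 1579 regions, 203 reached that unadjusted p. The median difference over the 80 regions was -0.00145 points, with 40 regions above 0 and 40 below. Lists of different lengths rank different sets of peaks, so a percentile difference is no measure of a change in acetylation.

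Uaca, a regulator of apoptosis, had 2709 bp in all 8 lists and folds of 5.21, 6.93, 8.1 and 7.63 in the db/db lists, against 3.62, 4.99, 4.69 and 4.95 in the lean lists. Its percentiles were 74.2, 87.3, 92.6 and 90.3 in db/db lists and 37.9, 67.3, 64.2 and 68.2 in lean lists. Cep250, a centrosome linker, had folds of 6.11, 5.05, 4.97 and 4.58 in the db/db lists, against 4.39, 3.72, 3.38 and 3.75 in the lean lists. AA474408, the last of these 3, stood at a percentile of at least 99.8 in all lists, and its folds were 473.45, 359.76, 413.73 and 476.28 in the db/db lists, against 205.9, 137.05, 166.51 and 180.11 in the lean lists.

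Rrbp1, a ribosome-binding protein of the rough endoplasmic reticulum, had 2119 bp in all lists and folds of 6.85, 8.59, 4.67 and 5.25 in the db/db lists, against 13.27, 11.02, 12.37 and 17.0 in the lean lists. Arid4b, a subunit of a histone deacetylase complex, had folds of 5.88, 5.62, 4.58 and 5.3 in the db/db lists, against 8.07, 7.08, 12.54 and 7.52 in the lean lists. Ppig, a prolyl isomerase of nuclear speckles, had folds of 9.29, 9.81, 5.89 and 9.8 in the db/db lists, against 11.22, 10.65, 12.64 and 12.53 in the lean lists. Its mean percentile difference was -5.13 points with all lists, -1.56 points without db4, -10.1 points among peaks with a fold of 4 or more and -16.2 points among those with a score of 50 or more. Under the same thresholds the difference of Rrbp1, -17.4 points, was -34.0 and -44.5, and that of Arid4b, -16.9 points, was -33.4 at the fold threshold. Arid4b at a score of 50, and Uaca and Cep250 at either threshold, no longer had a peak in every list and gave no value. The difference of AA474408, 0.0719 points, was 0.132 and 0.198. Fewer peaks are ranked under these thresholds.

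Widths were compared in the same way, as a description, since width chose the regions. Some of the regions that separated held a peak of 1000 bp in the lists of 1 group only. For such regions the rule itself favours groups that do not overlap. The db/db lists were all wider in 1 of the 80 regions (1.25%), where the background was 0.697%, and all narrower in 7 (8.75%), where the background was 1.65%. Over all peaks, the median width was lower in the db/db lists. It was 177, 179, 180 and 177 bp, against 186, 195, 187 and 183 bp in the lean lists, and the groups did not overlap. Peaks of 1000 bp or more numbered 285, 336, 350 and 237 in the db/db lists. In the lean lists they numbered 297, 326, 339 and 261, and these counts overlapped between the groups. The part of the list-wide difference in median width in the 7 regions was not tested. Many regions have 1 width in all lists and could not separate the groups. Among regions with unequal widths the narrower count was 7 of 57 (12.3%), where the background was 6.55%, and the wider count 1 of 57 (1.75%), where the background was 2.77%.

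Noa1, a mitochondrial GTPase, was the wider one, with 1180 bp in each db/db list against 585, 490, 664 and 660 bp in the lean lists. It met the width rule through the db/db lists only. Srek1ip1, which binds a splicing regulator, had 335, 571, 434 and 434 bp in the db/db lists, against 1072, 1440, 1242 and 1112 bp in the lean lists. Its region met the rule through the lean lists only. The splicing factor Prpf38b had 1088, 908, 1035 and 1169 bp in the db/db lists, against 1522, 1653, 1687 and 1632 bp in the lean lists. Cdc40, also a splicing factor, had 1071, 951, 1223 and 1258 bp in the db/db lists, against 1647, 1595, 1595 and 1677 bp in the lean lists.

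Prkce, a protein kinase C linked to hepatic insulin resistance, had 1473, 1432, 1443 and 1447 bp in the db/db lists, against 1510, 1941, 1871 and 2022 bp in the lean lists. The remaining 3, named after their values were seen, were Ankrd12, Angptl2 and Amer1. Angptl2, a secreted angiopoietin-like protein, had 862, 772, 783 and 781 bp in the db/db lists, against 1014, 1014, 1035 and 1281 bp in the lean lists. Angptl2 too met the width rule through the lean lists only.

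**Figure D5:**
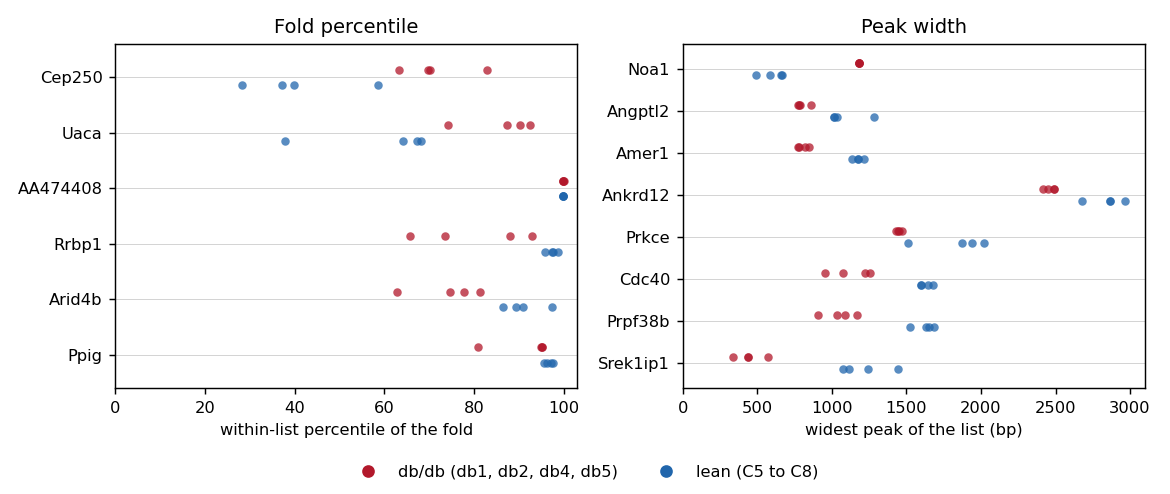
Within-list fold percentile (left) and widest peak in bp (right) for the broad regions whose groups did not overlap, with db/db lists in red above lean lists in blue. The AA474408 percentiles lie at the top of the scale in both groups, and Noa1 alone has wider peaks in the db/db lists.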

How the data were processed

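Peak lists from 4 db/db and 4 lean livers were used, with coordinates on mm10. Per the submitters' processing notes, cutadapt 1.9.3 and HISAT2 2.0.4 were run; the peak identifiers in the deposited lists name MACS, and its version, control and pooling are not given in the sources used here. The deposited fold is the authors' ratio at a peak, the deposited score is -10 log10 of the authors' p-value, and the deposited FDR is a percent. An FDR of 100% was listed for 96.6% of peaks in broad regions and 99.2% of all 68356 peaks, so most peaks pass no FDR threshold of the authors. An FDR of 5% or less was listed for only 1 peak in the broad regions. The lists held 7583 to 9754 peaks; read depth is unknown.

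Peaks were merged, ranked within lists and compared with exact permutation tests (4 against 4 lists) and exact sign-flip tests (8 lists) in Python 3.11.15 with numpy 2.4.6 and pandas 2.3.3; the scripts were tested on simulated data. Gene bounds and strands came from RefSeq, GRCm38.p6, for 484 and 365 broad regions. Printed coordinates are 1-based. Genes were named by fixed rules: the widest, the highest and lowest fold percentiles, lopsided presence, groups that did not overlap, list members and genes with several regions; others are marked in the text. The regions and lists were chosen with earlier results of these data known. Alternatives covered score, fold, overlap and width thresholds, left-out lists, peak midpoints and regions called in all lists. Values of some single genes are not reported here.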

Additional observations from a re-analysis of the deposited data

Results flagged for a closer look

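Stray values were sought in 92 groups of 4 lists, over per-list summaries of the broad regions and the folds of named regions. Of these, 4 held a value beyond Dixon's 95% critical value, where chance at 1 in 20 gives 4.6. All 4 were folds of named regions. In Prg4, the fold of 111.46 in db1 stood apart from the other db/db lists. In Ppig, the fold of 5.89 in db4 stood below the other db/db lists. In Srek1ip1, the fold was likewise 5.89 in db4. In Prkce, the fold of 8.47 in C8 stood above the other lean lists.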

How the results depend on the processing

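The number of broad regions was 191 with peaks of a score of at least 50, 321 when folds under 4 were dropped and 226 at a width of 1500 bp, and those in all 8 lists then numbered 35, 53 and 35. Regions with db/db fold percentiles all above lean numbered 5 of 110 (4.55%; background 6.27%) at a width of 800 bp, 1 of 53 (1.89%; 5.97%) when folds under 4 were dropped and 1 of 35 (2.86%; 4.72%) at a score of 50. Those below numbered 5 of 80 (6.25%; 7.79%) with the fold as deposited. Regions with all db/db widths above lean numbered 0 of 35 at 1500 bp (background 0.697%), 2 of 110 (1.82%; 0.697%) at 800 bp and 0 of 35 at a score of 50 (1.14%). Those below numbered 4 of 35 (11.4%; 1.65%) at 1500 bp and 2 of 35 (5.71%; 1.14%) at a score of 50. These width backgrounds include the regions with 1 width in all lists, which cannot separate the groups. Shares among unequal widths were taken in the main setting only. With peak midpoints, added after the data were seen, the 3′ end difference was -0.649 points (exact sign-flip test, p = 0.03125), as a wide peak's midpoint lies away from the end by construction. The nearest edge favours wide peaks by construction.

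Leaving out each list in turn gave 443 to 486 broad regions, 83 to 93 in all remaining lists, and a presence difference of -24.6 to 17.75 regions. With 3 lists against 4, more regions separate the groups, and the counts are set beside the background over all regions. Folds above numbered 4 to 7 (4.44% to 7.53%; background 7.52% to 9.59%), with 7 without db1 and 5 without each of C5, C6, C7 and C8. Folds below numbered 4 to 7 (4.30% to 8.33%; 7.64% to 9.38%), with 7 without db5 or C6, 5 without db4 and 6 without C8. Widths above numbered 1 to 3 (1.11% to 3.61%; 0.722% to 1.18%), with 3 without C8 and 2 without each of db1, C6 and C7. Widths below numbered 7 to 12 (8.24% to 13.3%; 1.71% to 2.37%), with 12 without db5 and 11 without C7. The width backgrounds again include regions with 1 width in all lists. Without 1 list, the fold percentile difference was 8.38 to 9.92 points, the 3′ end difference 15.0 to 17.1 and the 5′ start difference -7.92 to -6.36. The causes of the other shifts were not tested. No paired analysis was possible because the lists of the 2 groups share only the number 5 and are not tied to the replicate numbers of the samples. Read depth is not known, so an absent peak does not show absent acetylation.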

Other observations

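Some broad regions outside the naming rules, chosen after their values were seen, lay in genes with a known part in liver. Onecut1, a hepatocyte transcription factor, had 1481 bp in all 8 lists, with folds of 12.9, 14.99, 10.5 and 13.82 in the db/db lists, against 16.52, 8.74, 29.15 and 13.1 in the lean lists. Bdh1, an enzyme of ketone body metabolism, had 2277 bp in all 8 lists, with folds of 9.56, 10.4, 17.28 and 9.4 in the db/db lists, against 12.26, 13.26, 11.37 and 11.54 in the lean lists. Both groups overlapped in each. Lars2, the mitochondrial leucyl-tRNA synthetase, had folds of 52.91, 47.94, 7.41 and 36.49 in the db/db lists, against 1653.06, 46.52, 47.73 and 140.29 in the lean lists. The value of C5 was the highest fold of any broad region and stood far above the other lean lists. Lars2 was not among the regions searched for stray values.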
